A study of Mus musculus with 6 samples.

Results

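The GABA-A receptor subunits are the genes of the ligand-gated chloride channel that is the main known target of sevoflurane, and 8 of them, Gabra2, Gabra3, Gabra4, Gabra5, Gabrb1, Gabrb2, Gabrg1 and Gabrg3, were taken by gene name from the 56198 entries of the expression table. All 8 were found, once each. RNA-Seq had been performed on the cerebral cortex of C57BL/6 fetuses at E14.5, immediately after the dam had breathed gas for 6 h. In the Ctr group (n = 3 samples) the gas was 100% O2, and in the Sevo group (n = 3 samples) it was 2.5% sevoflurane with 97.5% O2, so both groups were exposed to a high oxygen level and neither breathed room air. How many fetuses or litters went into each sample is not stated, so p-values measure the spread between these samples only.

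A GABA-A receptor is a ring of subunits around a chloride pore, usually built from alpha, beta and gamma subunits. GABA binds between an alpha and a beta subunit, benzodiazepines bind between an alpha and a gamma subunit, and volatile anaesthetics such as sevoflurane strengthen the current through sites among the membrane-spanning segments. In the adult brain the alpha subunit sets much of a receptor's place and pharmacology, whereas in the embryonic cortex GABA is present before most synapses form, acts outside synapses, and usually depolarizes progenitors and young neurons because their internal chloride is high.

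The start regions of the members are shown first for their content of CpG, the dinucleotide that is methylated in mammalian DNA. In it Gabra2 and Gabra3, the 2 members with the highest mean TPM, lie at opposite ends. Each sequence is the RefSeq window from 250 bases before to 50 bases after an annotated gene start (GRCm38.p6), written 5′ to 3′ on the strand of the gene, with every CG in capitals. All 8 members matched the table by symbol, with 12 windows in all. Gabra2 (chr5:71095800-71096099, minus strand), Gabra3 (chrX:72656870-72657169, minus strand), Gabra5 (chr7:57510010-57510309, minus strand) and Gabrg1 (chr5:70842568-70842867, minus strand) are printed. The first 3 had the highest mean TPM of the members, and Gabrg1 was a low one.
Gabra2: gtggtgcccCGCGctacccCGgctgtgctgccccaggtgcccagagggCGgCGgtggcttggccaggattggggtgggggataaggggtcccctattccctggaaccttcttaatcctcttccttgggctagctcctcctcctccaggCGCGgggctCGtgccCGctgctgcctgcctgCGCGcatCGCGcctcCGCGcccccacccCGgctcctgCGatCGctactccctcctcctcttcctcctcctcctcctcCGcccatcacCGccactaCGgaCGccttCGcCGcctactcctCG
Gabra3: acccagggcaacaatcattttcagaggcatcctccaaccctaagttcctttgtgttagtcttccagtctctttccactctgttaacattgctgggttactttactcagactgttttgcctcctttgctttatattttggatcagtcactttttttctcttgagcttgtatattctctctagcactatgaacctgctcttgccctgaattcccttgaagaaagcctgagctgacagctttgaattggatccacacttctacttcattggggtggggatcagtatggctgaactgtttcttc
Gabra5: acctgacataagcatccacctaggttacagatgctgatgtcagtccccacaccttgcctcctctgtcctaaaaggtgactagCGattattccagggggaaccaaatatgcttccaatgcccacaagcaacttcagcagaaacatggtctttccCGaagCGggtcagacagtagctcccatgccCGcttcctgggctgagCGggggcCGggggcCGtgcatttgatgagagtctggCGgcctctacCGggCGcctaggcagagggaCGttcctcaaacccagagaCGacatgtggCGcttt
Gabrg1: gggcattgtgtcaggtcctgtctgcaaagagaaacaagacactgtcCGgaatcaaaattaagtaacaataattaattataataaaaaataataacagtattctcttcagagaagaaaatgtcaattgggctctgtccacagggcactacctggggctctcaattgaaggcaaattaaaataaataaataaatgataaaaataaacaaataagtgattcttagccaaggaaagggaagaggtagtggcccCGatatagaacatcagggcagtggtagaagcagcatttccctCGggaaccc
The Gabra2 window held 25 CG, a number reached by 18.4% of the 32851 windows of this length, and its GC content was 70.0%. The Gabra3 window held no CG, as did the other Gabra3 window, which 5.43% of all windows share. The Gabra5 window held 13 CG and the Gabrg1 window 3, beside a median of 7 over all windows. Number of CG and RNA level did not follow the same order, since Gabra2 and Gabra3 had similar levels and Gabrb1, with 25 CG in its first window, was among the low members.

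The members lie in 4 places of the mouse genome (positions from GENCODE M21, GRCm38, which need not be the annotation behind the table). Gabrg1 (70751047 to 70842617), Gabra2 (70957597 to 71095849), Gabra4 (71569749 to 71658308) and Gabrb1 (71658113 to 72149037) are neighbours on chromosome 5. Gabra4 and Gabrb1 face away from each other with 5′ ends that overlap by 196 bases, of which 46 are exonic in both. Whether the libraries kept strand is not stated, so reads from those bases cannot be told apart, although they are few beside the 6083 exonic bases of Gabra4 and the 13838 of Gabrb1. Gabrg3 (56716465 to 57387188) and Gabra5 (57407672 to 57510059) are neighbours on chromosome 7, Gabrb2 (42419757 to 42629028) is on chromosome 11 and Gabra3 (72432681 to 72656848) is on the X chromosome. Gabra5 shares 148 exonic bases with Gm9962, an antisense RNA with a mean of 0.0167 TPM.

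Values are TPM, in which reads are divided by transcript length and scaled to the same total in each sample. Levels of different genes can then be compared, but only as far as the lengths used are right. Those lengths are not stated, and exonic bases of the members run from 2974 for Gabra5 to 13838 for Gabrb1. TPM keep no read depth, so no counting error can be given, and a low TPM value may rest on few reads. Markers of the cortex were present, with summed TPM of 12 neuronal markers from 3209 to 3650 in the Ctr group and from 3130 to 3776 in the Sevo group. The sum of 8 markers of radial glial progenitors was 2340 to 2523 in the Ctr group and 1898 to 2116 in the Sevo group. The sum of 15 markers of the ganglionic eminence and interneurons was 213 to 240 in the Ctr group and 169 to 344 in the Sevo group, lowest in Sevo replicate 1. Ctr replicate 2 stood apart by its 4 choroid plexus markers, which summed to 759 TPM against 2.02 to 25.4 TPM in the other 5 samples.

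The alpha subunits, which form the GABA site together with beta subunits, were the most abundant members, each with a mean over the 6 samples between 4 and 6 TPM. Gabra2, the alpha subunit of many forebrain synapses in adults, had 3.71, 6.35 and 7.21 TPM in the Ctr samples and 4.56, 3.07 and 7.48 TPM in the Sevo samples. Its groups overlapped over almost their whole range, with means of 5.76 ± 1.82 and 5.04 ± 2.24 TPM (SD, n = 3). On the log2(TPM + 1) scale, used for every fold change here, Sevo against Ctr gave -0.19 ± 0.31 (log2 fold change ± standard error; adjusted p = 0.778, limma). Gabra3, which in adults is prominent in monoaminergic and thalamic reticular neurons, had 4.80, 3.85 and 5.23 TPM in the Ctr samples and 3.30, 4.88 and 7.26 TPM in the Sevo samples. Both the lowest and the highest of its values were Sevo samples. Its log2 fold change was 0.08 ± 0.25 (adjusted p = 0.884, limma).

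Gabra4, an alpha subunit that pairs with the delta subunit in receptors outside synapses, had 4.03, 4.29 and 5.33 TPM in the Ctr samples and 5.64, 1.48 and 4.79 TPM in the Sevo samples. Sevo replicate 2 was far below the other 5 samples, which lay between 4.03 and 5.64 TPM. With all samples its log2 fold change was -0.27 ± 0.36 (adjusted p = 0.716, limma), and without that sample it was 0.17 (adjusted p = 0.589, limma). Gabra5, known in adults for receptors outside synapses of the hippocampus, had 4.75, 2.80 and 3.78 TPM in the Ctr samples and 3.64, 3.88 and 7.39 TPM in the Sevo samples. Sevo replicate 3 alone lay above the Ctr range, and the other Sevo samples lay within it. For Gabra5 the log2 fold change was 0.29 ± 0.27 (adjusted p = 0.606, limma), and without Sevo replicate 3 it was 0.01, the lowest value with any sample left out.

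**Figure D1:**
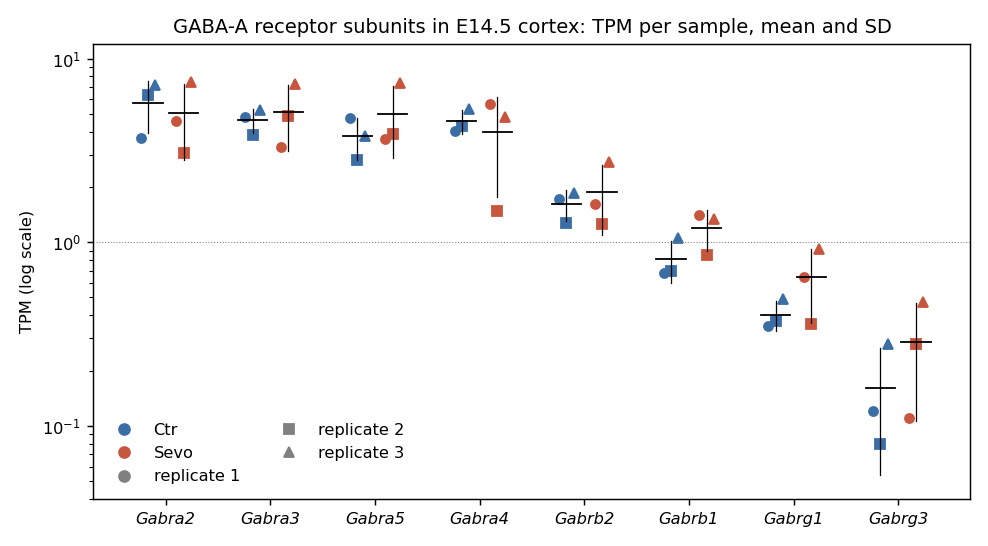
TPM (log axis) of the 8 subunits in each of the 3 Ctr (blue) and 3 Sevo (red) samples, with horizontal bars for group means, vertical bars for SD and a dotted line at 1 TPM. The 4 alpha subunits lie together between 1.48 and 7.48 TPM, the beta and gamma members lie lower in each sample (Gabrb2, up to 2.74 TPM, reaches into the range of Gabra4 across samples), and the groups overlap for each of the 8 genes.

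The beta members, whose class carries part of the GABA site and residues needed for anaesthetic action, were lower than the alpha members. Gabrb2, which in the adult brain is a widespread partner of synaptic receptors, had 1.71, 1.27 and 1.86 TPM in the Ctr samples and 1.62, 1.25 and 2.74 TPM in the Sevo samples. Sevo replicate 3 was again the only sample above the Ctr range. Gabrb2 had a log2 fold change of 0.11 ± 0.25 (adjusted p = 0.843, limma). Gabrb1 had 0.68, 0.70 and 1.05 TPM in the Ctr samples and 1.40, 0.85 and 1.34 TPM in the Sevo samples, with Sevo replicates 1 and 3 above every Ctr sample and Sevo replicate 2 within the Ctr range. Its mean over the 6 samples, 1.003 TPM, barely passed the filter of 1 TPM, and it passed through the Sevo group (Ctr mean 0.81 TPM, Sevo mean 1.20 TPM). For Gabrb1 the log2 fold change was 0.28 ± 0.23 (adjusted p = 0.544, limma), and it ran from 0.21 to 0.39 with single samples left out.

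The gamma members were the lowest, and both fell short of a mean of 1 TPM, so they are given as values. Gabrg1, a gamma subunit with low benzodiazepine sensitivity that is found in glia and some limbic regions, had 0.35, 0.37 and 0.49 TPM in the Ctr samples and 0.65, 0.36 and 0.92 TPM in the Sevo samples. Sevo replicates 1 and 3 lay above the Ctr range and Sevo replicate 2 inside it, the same arrangement as for Gabrb1. Gabrg3, a gamma subunit of low abundance in most of the brain, had 0.12, 0.08 and 0.28 TPM in the Ctr samples and 0.11, 0.28 and 0.47 TPM in the Sevo samples. The differences on the log2(TPM + 1) scale, 0.21 for Gabrg1 and 0.14 for Gabrg3, depend on the pseudocount, and with one of 0.01 they were 0.58 and 0.77. With no filter, adjusted p from limma was 0.646 for Gabrg1 and 0.680 for Gabrg3.

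By mean TPM over the 6 samples the order was Gabra2 (5.40), Gabra3 (4.89), Gabra5 (4.37), Gabra4 (4.26), Gabrb2 (1.74), Gabrb1 (1.003), Gabrg1 (0.523) and Gabrg3 (0.223). The 4 alpha subunits could not be ranked, since neighbours among them changed places between samples, Gabra2 being above Gabra3 in 4 of 6 samples, Gabra3 above Gabra5 in 4 and Gabra5 above Gabra4 in 3. Below them the order was the same in every sample, with Gabra4 above Gabrb2, Gabrb2 above Gabrb1, Gabrb1 above Gabrg1 and Gabrg1 above Gabrg3 in 6 of 6, although the ranges of neighbours overlapped across samples. All were modest transcripts, since the alpha members stood at the percentiles 22.1 to 25.6 of mean TPM among the 14518 genes tested, whose median was 17.1 TPM.

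Of the TPM summed over the 8 members, the alpha subunits took 86.3% ± 1.2 in the Ctr group and 82.7% ± 0.64 in the Sevo group (SD, n = 3). The share was lower in each Sevo sample (81.9% to 83.1%) than in each Ctr sample (85.4% to 87.7%). The 2 beta members took 11.1% ± 1.0 and 13.4% ± 0.95, and the 2 gamma members took 2.56% ± 0.43 and 3.97% ± 0.33, both without overlap between the groups. These shares describe 8 chosen members, which are not the whole family, and are not tested. In TPM the groups lay apart in 27.1% of all tested genes, and no matching rate was computed for shares. The gamma shares rest on values from 0.08 to 0.92 TPM. Among single members, the share of Gabrg1 lay apart (1.74% to 1.94% in the Ctr samples and 2.24% to 3.11% in the Sevo samples), whereas in TPM no member had groups apart. The shares add up to a fixed total, so that they move together. The 4 alpha subunits divided their part differently in each sample, from 18.4% to 32.2% of the sum for Gabra2, 15.8% to 30.4% for Gabra3, 9.22% to 27.0% for Gabra4 and 14.2% to 24.2% for Gabra5. In bulk tissue, fewer cells that carry a subunit and less of its RNA per cell cannot be told apart.

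**Figure D2:**
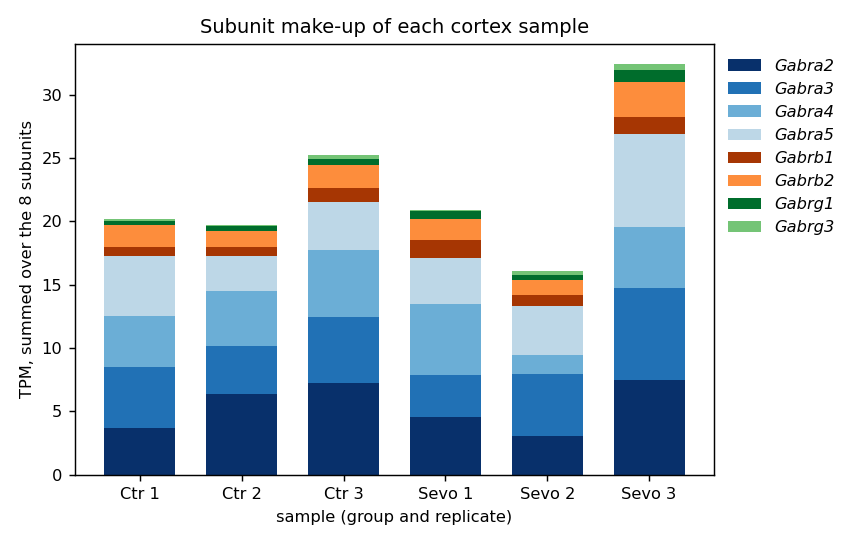
Stacked TPM of the 8 subunits in each sample (alpha blue, beta orange, gamma green), so that bar height is the summed TPM. The sum runs from 16.1 TPM in Sevo replicate 2 to 32.4 TPM in Sevo replicate 3, the lowest and the highest of the 6 samples, and alpha subunits fill most of every bar.

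Summed over the 8 members, the samples of the Sevo group differed among themselves by more than the group means did. The sum was 20.2, 19.7 and 25.2 TPM in the Ctr samples and 20.9, 16.1 and 32.4 TPM in the Sevo samples, with means of 21.7 ± 3.1 and 23.1 ± 8.4 TPM (SD, n = 3). Sevo replicate 3 held the highest value of 6 of the 8 members, the exceptions being Gabra4 and Gabrb1, whose highest values were in Sevo replicate 1. Over all tested genes, Sevo replicate 3 was the highest sample for 17.6%. These exceptions are the pair whose 5′ ends overlap on chromosome 5, and the part of that overlap was not tested. For Gabrb1 the margin over Sevo replicate 3 was small (1.40 against 1.34 TPM). In Sevo replicate 2 the pair parted, at 0.325-fold of the Ctr mean for Gabra4 and 1.05-fold for Gabrb1. In Sevo replicate 3 all 8 members exceeded their Ctr mean, by 1.05-fold for Gabra4 to 2.94-fold for Gabrg3 with a median of 1.68-fold, whereas the median over all tested genes in that sample was 0.963-fold. All 8 also exceeded the Ctr mean in Ctr replicate 3, by 1.001-fold to 1.75-fold. Sevo replicate 2 held the lowest value of 3 of the 8 members, Gabra2, Gabra4 and Gabrb2, and of 26.5% of all tested genes.

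The SD of log2(TPM + 1) was larger in the Sevo group than in the Ctr group for 8 of 8 members. That includes the 6 tested, beside 74.9% of all tested genes. For Gabra4 the SD was 0.77 against 0.17, and for Gabra3 0.47 against 0.19. The neuronal marker sum was also highest in Sevo replicate 3, at 3776 TPM, and the interneuron marker sum was 344 TPM there and 329 TPM in Sevo replicate 2. Sevo replicate 3 also had the lowest sum of 5 intermediate progenitor markers, 402 TPM against 571 to 712 TPM in the other 5 samples, and the lowest sum of radial glial markers, 1898 TPM. Single markers did not all follow these sums. In Sevo replicate 3, Tubb3 was at its highest of the 6 samples (1516 TPM), whereas Neurod6 was at its lowest (483 TPM). Likewise Nes was at its lowest there (62.1 TPM), whereas Sox2 (90.5 TPM) lay above every Ctr sample. The part of these markers in the members' values was not tested.

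**Figure D3:**
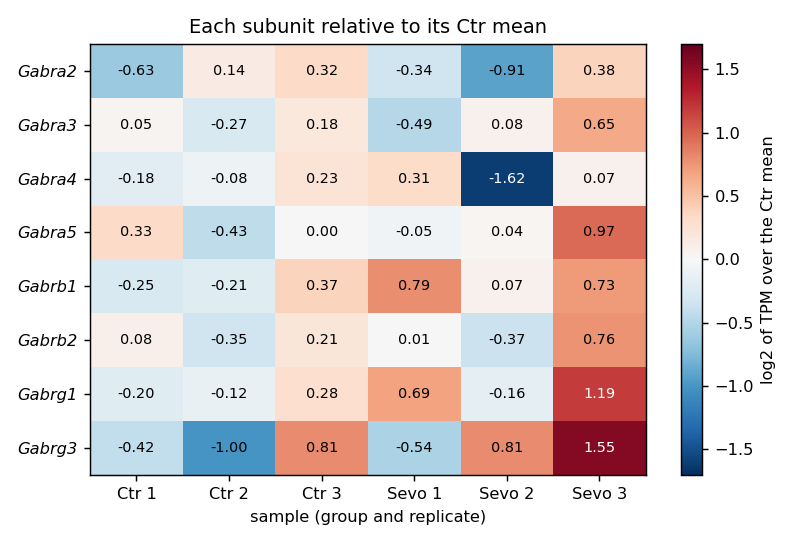
Log2 of each subunit's TPM over its Ctr mean, in each of the 6 samples (red above, blue below the Ctr mean). All cells of Sevo replicate 3 are above 0, and the most negative cell is Gabra4 in Sevo replicate 2.

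No member passed an adjusted p of 0.05 (limma, Benjamini-Hochberg over 14518 genes), against 0.00689% of all tested genes, and none of the 6 tested had an unadjusted p under 0.05, against 19.4%. Adjusted p ran from 0.544 to 0.884. Sevo and Ctr values overlapped for all 8 members, the 6 tested among them. They lay apart in 27.1% of all tested genes (9.43% with Sevo higher, 17.7% with Sevo lower). The median level of all tested genes, 17.1 TPM, was above the mean of every member. For a single gene, the smallest p that 3 against 3 samples allow in a two-sided exact permutation test is 0.1, and the lowest among the members was 0.2, for Gabrb1. Of the 6 tested, 4 had positive and 2 negative values. Gabrb1, among the positive ones, passed the filter only through the Sevo group, where it was higher. The median log2 fold change of the 6 was 0.10 beside -0.06 over all tested genes. It was -0.13 without Sevo replicate 3 and -0.0043 without Ctr replicate 2. The 95% interval from limma was -0.92 to 0.54 for Gabra2, -0.50 to 0.67 for Gabra3, -1.10 to 0.56 for Gabra4 and -0.35 to 0.92 for Gabra5. For Gabrb1 it was -0.25 to 0.80 and for Gabrb2 -0.47 to 0.69. Without Ctr replicate 2, the sample with choroid plexus markers, the log2 fold changes of the 6 ran from -0.30 for Gabra4 to 0.23 for Gabrb1.

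**Figure D4:**
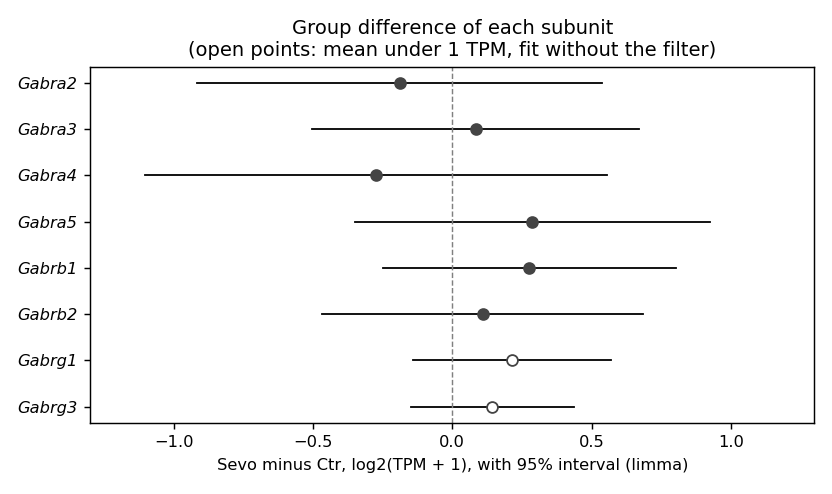
Difference between the Sevo and Ctr groups for each subunit on log2(TPM + 1), with the 95% interval from limma (open points, Gabrg1 and Gabrg3, from the fit without a filter on low values). Each interval includes 0, and the widest is that of Gabra4.

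Of 8 further subunit genes taken from the table, 2 reached a mean of 1 TPM. Gabre, the epsilon subunit, lay lower in every Sevo sample, with 0.53 to 0.83 TPM against 0.99 to 1.5 TPM (log2 fold change -0.44, adjusted p = 0.317, limma). Sevo values lay wholly lower in 17.7% of all tested genes. The mean of Gabre over the 6 samples was 1.01 TPM, and it passed the filter of 1 TPM through the Ctr group, where it was higher (means of 1.32 and 0.70 TPM). Gabrd, the delta subunit, had 0.91 to 2.14 TPM in the Sevo samples and 0.62 to 1 TPM in the Ctr samples (adjusted p = 0.327, limma), and it passed the filter through the Sevo group (means of 0.79 and 1.58 TPM in the Ctr and Sevo groups). Gabrq ran from 0.30 to 0.65 TPM and Gabrr2 from 0.17 to 1.08 TPM over the 6 samples, Gabrr1 and Gabrr3 did not exceed 0.09 TPM, and Gabra6, a cerebellar subunit, and Gabrp were listed at 0 in every sample.

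The other genes around the receptor were compared by lists, and none of their genes passed an adjusted p of 0.05 from limma. Of 7 tested genes that make, pack, take up or break down GABA, 5 had positive values, beside 5965 of all 14518 tested genes. The median log2 fold change of the 7 was 0.10. Without Sevo replicate 2 this median was -0.05, and without Sevo replicate 1 it was 0.29. Gad1, which makes GABA, and Abat, which breaks it down, had log2 fold changes of 0.44 and 0.22. Aldh5a1, which acts after Abat in that breakdown, had 7.57 ± 0.50 and 8.07 ± 0.77 TPM in the Ctr and Sevo groups (SD, n = 3). Gad1 had 9.84, 13.0 and 11.7 TPM in the Ctr samples and 8.76, 27.1 and 16.7 TPM in the Sevo samples. The interneuron marker sum was likewise lowest in Sevo replicate 1 and higher in Sevo replicates 2 and 3 than in the Ctr samples, although its highest value was in Sevo replicate 3 and not in Sevo replicate 2. The part of those markers in Gad1 was not tested.

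Of 24 tested genes that cluster or traffic the receptor, 11 had positive and 13 negative values, with a median of -0.04. Gabarap, which binds gamma subunits, had 323 ± 21.7 and 337 ± 16.2 TPM in the Ctr and Sevo groups (SD, n = 3). Gabarapl2, its relative, had a log2 fold change of -0.21 (adjusted p = 0.302, limma). Gphn, the scaffold gephyrin, had 80.3, 165 and 727 TPM in the Ctr samples and 271, 299 and 276 TPM in the Sevo samples, so that the Ctr samples spanned the Sevo range. Its log2 fold change of 0.40 was -0.30 without Ctr replicate 1 and 1.28 without Ctr replicate 3. Rdx, the gene of radixin, which anchors receptors with the alpha subunit of Gabra5, was chosen after its values were seen. It had 95.9, 92.2 and 93.7 TPM in the Ctr samples and 78.9, 60.6 and 68.0 TPM in the Sevo samples, lower in each Sevo sample (log2 fold change -0.44 ± 0.11, adjusted p = 0.116, limma). Sevo values lay wholly lower in 3 of the 24 genes of this list and in 17.7% of all tested genes.

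The 4 tested genes of the GABA-B receptor, which couples GABA to G proteins, had a median of 0.13, which was 0.0099 without Sevo replicate 3 and -0.05 over 6 genes with no filter on low values. Gabbr1, by far the most abundant, had 111 ± 24.0 TPM in the Sevo group against 90.5 ± 9.9 TPM in the Ctr group (SD, n = 3), while its obligate partner Gabbr2 had 2.68 ± 0.47 and 2.72 ± 0.69 TPM and the auxiliary subunit Kctd12 had a log2 fold change of 0.26. The 8 chloride cotransporters and their kinases had a median of -0.04, which turned positive without Sevo replicate 1, at 0.080. Among them, the log2 fold change was -0.23 for Wnk1 (adjusted p = 0.200, limma), -0.02 for Wnk2 and 0.10 for Oxsr1. Slc12a2, the importer that keeps chloride high in young neurons, had 15.4 ± 0.75 and 14.7 ± 0.92 TPM (SD, n = 3), and Slc12a5, the exporter that lowers it later, had 1.65, 2.54 and 3.76 TPM in the Ctr samples and 3.03, 2.51 and 7.14 TPM in the Sevo samples. For Slc12a5, too, Sevo replicate 3 alone lay above the Ctr range. Dbi, whose peptide binds the benzodiazepine site, was listed at 979 to 1181 TPM with a log2 fold change of -0.02. Tspo, the mitochondrial protein that also binds this peptide, had 3.8, 4.51 and 4.06 TPM in the Ctr samples and 7.82, 9.06 and 7.17 TPM in the Sevo samples. Tspo was higher in each Sevo sample and had the lowest adjusted p of these lists (log2 fold change 0.81 ± 0.16, adjusted p = 0.0855, limma). Sevo values lay wholly higher in 9.43% of all tested genes.

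**Figure D5:**
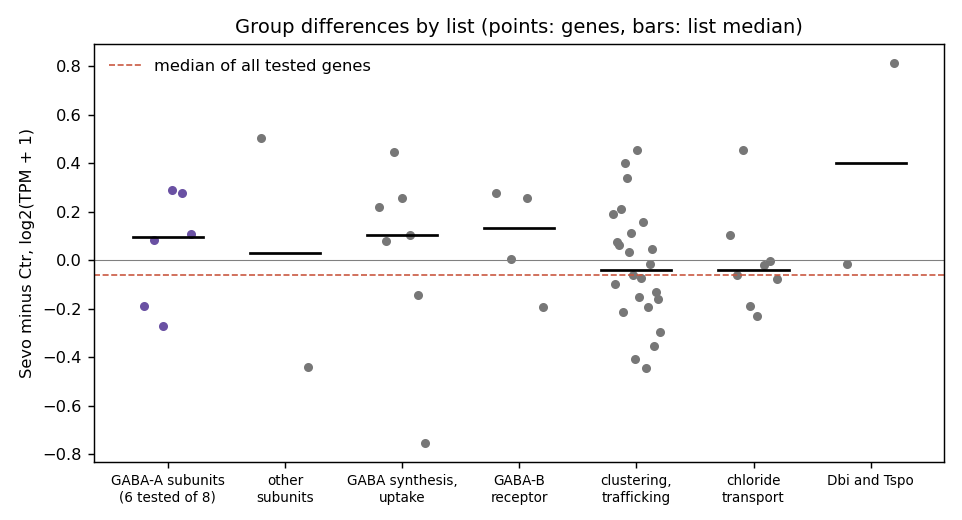
Difference between the Sevo and Ctr groups on log2(TPM + 1) for each tested gene (points) of 7 lists, with list medians (bars) and the median of all 14518 tested genes at -0.06 (dashed). The 6 tested members (purple) lie between -0.27 and 0.29, within the span of the clustering and trafficking genes, and the highest point is Tspo at 0.81.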

How the data were processed

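Total RNA of the fetal cortex was sequenced in 6 samples, which were grouped by their deposited labels. The authors deposited TPM per gene and sample, rounded to 2 decimals. The sources used here do not say how the TPM were computed. Bowtie 0.12.2, edgeR, mm8 and mm10 appear in the submitters' processing notes with no role, and the paper's methods name DESeq2, which needs counts. The depth is unknown. Names turned into dates (27) were restored by Ensembl identifier. The 14518 named genes that averaged 1 TPM or more over the samples entered limma 3.58.1 (R 4.3.3) as log2(TPM + 1), two-sided, with an abundance trend and Benjamini-Hochberg adjustment, and single genes by exact permutation over 10 splits. The code was tested on simulated data. Alternatives covered the pseudocount, filter, scaling, eBayes settings, a replicate block and each sample left out. The members, lists and markers were chosen with earlier results of these data known. Named genes are the members, the other subunits, the 3 most abundant genes of each list and the genes most like Gabra2. Rdx, Slc12a2, Slc12a5, Slc6a13 and Wnk4 lie outside that rule. Some genes of the GABA system are not reported here. Of 25 trafficking genes, 24 matched by symbol. Figures used Python 3.11.15 with matplotlib 3.10.9.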

Additional observations from a re-analysis of the deposited data

How the results depend on the processing

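No member and no gene of the other lists passed an adjusted p of 0.05 from limma under any of the 16 alternatives, and the lowest adjusted p of a member was 0.300, for Gabrb1 with a sample left out. Signs of 4 members turned with single samples. With each sample left out in turn, the log2 fold change ran from -0.47 to 0.063 for Gabra2 (positive only without Sevo replicate 2), from -0.15 to 0.32 for Gabra3 (negative without Ctr replicate 2, at -0.019, or without Sevo replicate 3), from -0.54 to 0.17 for Gabra4 (positive only without Sevo replicate 2) and from -0.099 to 0.27 for Gabrb2 (negative only without Sevo replicate 3). Gabra5 (0.01 to 0.44) and Gabrb1 (0.21 to 0.39) kept a positive sign. No other alternative turned the sign of a tested member where it gave a value. The log2 fold change of Gphn ran from -0.30 to 1.28 with samples left out, negative only without Ctr replicate 1. With a minimum mean of 5 TPM, Gabra2 was the only member tested. Median centring shifted the median over all tested genes from -0.06 to 0.04. The median log2 fold change changed sign under at least 1 alternative for the members (-0.19 to 0.22), the other subunits (-0.011 to 0.13), the genes of GABA synthesis and breakdown (-0.05 to 0.29), the GABA-B receptor (-0.05 to 0.27), clustering and trafficking (-0.098 to 0.058) and chloride transport (-0.10 to 0.080). Of these ends, -0.19 for the members was Gabra2 alone, with a minimum mean of 5 TPM. With 6 members tested, the lowest median was -0.13, without Sevo replicate 3. The 0.27 for the GABA-B receptor rested on 2 genes, also with a minimum mean of 5 TPM. The alpha share of the 8 members, averaged over the samples, was 84.5% and ran from 83.8% to 85.0% with samples left out. Same-numbered Ctr and Sevo samples did not deviate together (r = -0.02, 0.02 and 0.01 over tested genes), no sample correlated best with its own number, and the replicate block called 0 members and left the count over all genes at 1. The depth behind TPM is unknown, which limits the low members most.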

Other observations

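The 14518 tested genes, without symbols of the Gm and Rik kind, were searched for those most like Gabra2, the member with the highest mean TPM. By log2(TPM + 1) over the 6 samples, these were Pid1 (Pearson's r = 0.977), Abtb2 (0.975) and Tbc1d9 (0.969). These values are descriptions without a test. Within each sample all genes share 1 library and scaling, and so few samples give high values for some gene in any case. Pid1 ran from 8.44 TPM in Sevo replicate 2 to 10.7 TPM in Sevo replicate 3, the same samples that held the lowest and the highest Gabra2 value.

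Slc6a13, a GABA and taurine transporter of the meninges and choroid plexus, was listed at 8.10 TPM in Ctr replicate 2 and at no more than 0.90 TPM in the other 5 samples. That is the sample with 759 TPM of choroid plexus markers, and it also had the highest sum of 5 meningeal markers, 66.0 TPM against 2.68 to 14.1 TPM. Wnk4 was highest in the same sample, at 4.56 TPM, but was not particular to it. It had 2.52 TPM in Sevo replicate 2 and 0.92 TPM in Sevo replicate 3, against 0.20 to 0.35 TPM in the remaining samples.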
